A study of Arabidopsis thaliana with 8 samples.

Results

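The transcriptional response to salt was examined in the 3 Arabidopsis thaliana lines whose libraries with and without NaCl differed, in 6 of the 8 samples of the series. The samples were taken by their titles: Col-0, Empty vector control and T31-5 at 75 mM NaCl (3 libraries) against the same lines at 0 mM NaCl (3 libraries), paired by line. By their labels, all are whole plants, Col-0 is the wild type, the empty vector line (the vector line below) expresses VP16 alone (a viral transcription activation domain), and T31-5 expresses a 3F-VP16 fusion, described there as inducing tolerance to salinity. Plant age, the length of the salt treatment, the number of plants pooled and whether a transgenic line is 1 insertion event were not stated in the labels. The line T43-11 (2 samples), labelled like T31-5, was left out with its nearly equal libraries at 75 and 0 mM already known, so that the 3 lines responded is how they were chosen and not a result.

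Salt confronts a plant with low water potential and with toxic sodium, and adjustment takes sugars, amino acids and proton gradients that move sodium into the vacuole. Carbon for this comes from photosynthesis by day and from starch, lipids and protein when photosynthesis is limited. Stomata close, growth hormones are held back, and cell walls and surface layers are remodelled, with abscisic acid and jasmonate as major signals.

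Gene reads per library ranged from 13007480 (Col-0 at 75 mM) to 22820814, and 22601 to 23479 genes had a read. A pair of libraries stood close together: at 0 mM the vector line and the line labelled T31-5 had a mean chi-square of 1.44 per gene, where sampling alone gives about 1, against 7.68 for the same lines at 75 mM and 15.9 and 16.2 for Col-0 against each at 0 mM. Whether these are independent lines, or whether labels were exchanged or a library shared, was not tested. If they are not independent, there are fewer than 3 replicates and the p-values are too small. They were kept as separate samples, and counts with both lines summed as 1 line are given beside many of the results. The added row T31 of the tables held 67 and 106 reads in the libraries labelled T31-5 at 75 and 0 mM and 68 and 83 reads in those of the vector line, so it did not tell these lines apart. The same row had 587 and 500 reads in T43-11 at 75 and 0 mM, or 27.7 and 26.8 CPM. In the 4 libraries of the vector line and T31-5 it had 2.94 to 4.88 CPM, so the label T31-5 is not borne out by it. The other added row, T43, held 711 and 606 reads in T43-11 at 75 and 0 mM. That row held 1 read in the library labelled T31-5 at 75 mM and 0 in the rest, which sets T43-11 apart. Where the T31 reads in T43-11 come from was not tested. Of marker genes, 4 of 8 root markers were higher with salt and 0 were lower, their summed level being 1595 to 2466 counts per 1e6 reads on genes (CPM) at 75 mM and 1196 to 1267 CPM at 0 mM. This sum is almost wholly PYK10 (AT3G09260), with 1540, 1983 and 2350 CPM at 75 mM against 1157, 1215 and 1149 CPM at 0 mM, and CASP1, AT4G26010 and SHV2 did not pass and had lower CPM with salt in Col-0. All 3 leaf markers were lower, at 16410 to 18360 CPM at 75 mM against 20530 to 21070 CPM at 0 mM, and the 3 seed markers summed to at most 0.139 CPM in any of the 6 libraries. In whole plants a smaller share of cells of a type and less RNA per cell cannot be told apart, and the part of organ proportions in the results below was not tested.

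Salt changed the levels of a large part of the genes. Of 20393 genes tested among 32678, 2982 were higher at 75 mM (14.6%) and 3154 lower (15.5%) at an adjusted p under 0.05 in edgeR's quasi-likelihood test, fitted as salt plus line. Among these, 705 were at least 2-fold higher (3.46% of those tested) and 473 at least 2-fold lower (2.32%), and 2978 and 3149 of the called genes moved the same way in all 3 lines. With the vector line and T31-5 summed as 1 line, 1279 genes were higher and 1619 lower, of which 1269 and 1610 were called in the fit of 3 lines. Without the vector line 772 were higher and 1127 lower, and without T31-5 1445 and 1667. Fits with lines summed or left out have fewer residual degrees of freedom. A call lost there does not by itself tie a gene to a line. There was 1 library per line and salt level, so the lines served as replicates. The p-values rest on how far the salt difference varied among the 3 lines, and no replicate within a line was available. They also rest on the other genes, since edgeR draws the spread of each gene towards a trend over all genes. CPM are not corrected for gene length, so levels are compared between samples and not between genes. Counts of calls in every list below stand against the shares of all genes tested, 14.6% higher and 15.5% lower. The split depends on scaling: with gene reads alone as library sizes, 5501 genes were higher and 1995 lower, and the median of all genes was 0.16 on the log2 scale against 0.01 with TMM factors. Log2 differences below are TMM-scaled and directions are relative to that median, while CPM are over gene reads alone. With T43-11 added as another line, edgeR called 0 genes, and 5996 had an unadjusted p under 0.05. T43-11 without salt had 46.6 CPM of SWEET12, 43.9 CPM of FAR1 and 8.04 CPM of KAT1. For these genes, described below, that is nearer to the other lines with salt than without it. T43-11 with salt had 49.6, 46.3 and 7.61 CPM of them. How many genes follow this was not counted.

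**Figure D1:**
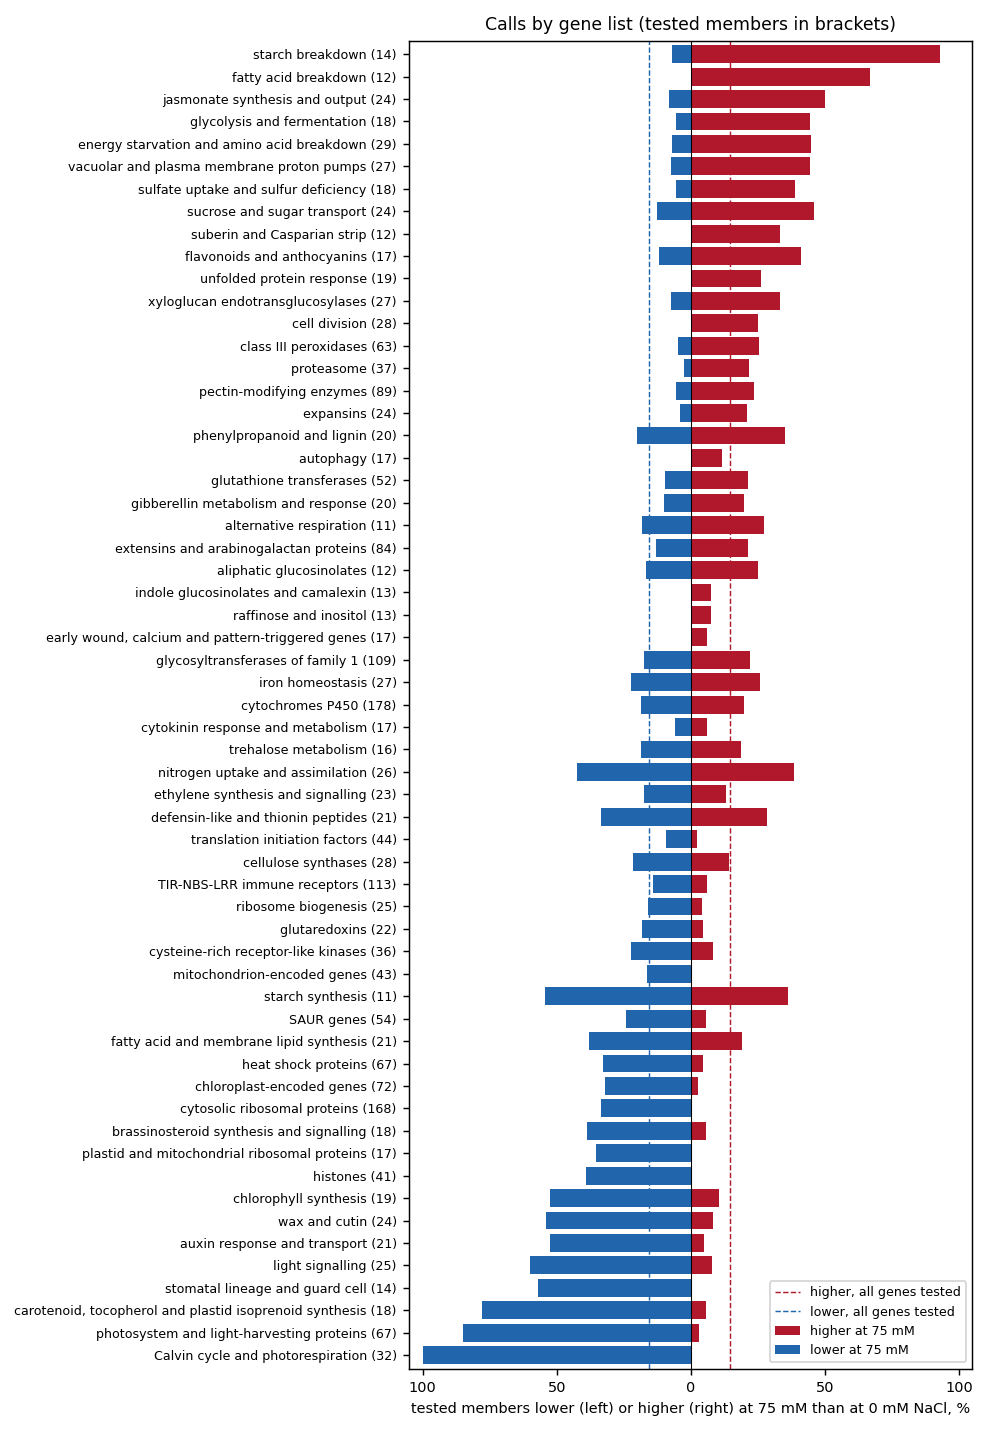
Bars give, for 59 gene lists, the percentage of tested members called lower (left, blue) or higher (right, red) at 75 mM than at 0 mM NaCl by edgeR, with the number tested in brackets. Dashed lines mark the 15.5% lower and 14.6% higher among all genes tested; starch breakdown heads the list and Calvin cycle genes close it, with 100% lower.

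Genes of carbon fixation moved as 1 block. All 32 tested genes of the Calvin cycle, which fixes CO2, and of photorespiration, which recovers carbon lost to oxygen, were lower with salt, with a median log2 difference of -0.70 and line medians of -0.74 in Col-0, -0.64 in the vector line and -0.70 in the line labelled T31-5. Their summed level was 55020, 52220 and 52100 CPM at 75 mM in these lines, against 88160, 76610 and 78330 CPM at 0 mM. The groups did not overlap. With the vector line and T31-5 summed, 25 of the 32 were lower, and 27 with gene reads alone as library sizes, with 0 higher in both. RCA (AT2G39730), which encodes Rubisco activase, stood at 9868, 8946 and 9070 CPM at 75 mM, against 17450, 15120 and 15430 CPM at 0 mM, a log2 difference of -0.93 ± 0.05 (SE, edgeR adjusted p = 0.000382). RBCS2B (AT5G38420), a small subunit of Rubisco with near-identical copies between which reads may be split, had 1579, 1621 and 1750 CPM at 75 mM against 3208, 3091 and 3191 CPM at 0 mM. The aldolase FBA2 (AT4G38970) had 2510, 2354 and 2319 CPM at 75 mM and 5015, 4135 and 4234 CPM at 0 mM. In photorespiration, HPR (AT1G68010), a peroxisomal hydroxypyruvate reductase, had 749.9, 667.2 and 689.4 CPM at 75 mM against 1491, 1298 and 1284 CPM at 0 mM. For each of these genes every library with salt lay below every library without.

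Genes of light capture were lower too. Of 67 tested genes of photosystems and light-harvesting complexes 57 were lower and 2 higher, with a median of -0.51, and 47 lower and 3 higher with the vector line and T31-5 summed. The list summed to 87350, 99200 and 105500 CPM at 75 mM, against 110600, 119100 and 118900 CPM at 0 mM, without overlap. LHCB4.3 (AT2G40100), an antenna protein of photosystem II, fell by 1.46 on the log2 scale (SE 0.13), while LHB1B1 (AT2G34430), also an antenna protein and a member of the LHCB1 family of near-identical copies, rose by 0.34 (SE 0.05), a call lost without the vector line or without T31-5. The other higher member was PSBP-2 (AT2G30790), annotated as a subunit of photosystem II, at 8.46, 10.3 and 12.9 CPM at 75 mM against 3.94, 4.02 and 5.20 CPM at 0 mM. Ferredoxin FED A (AT1G60950), the electron acceptor of photosystem I, had 839.2, 882.4 and 1048 CPM at 75 mM against 1871, 1845 and 1841 CPM at 0 mM. Of plastid isoprenoid genes, which make carotenoids and tocopherol, 14 of 18 were lower and 1 higher, with a median of -0.62. The carotene hydroxylase BETA-OHASE 2 (AT5G52570) fell by 1.01 (SE 0.06), and HPT1 (AT2G18950), which commits homogentisate to tocopherol, rose by 0.83 (SE 0.11).

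Chlorophyll synthesis split. Of 19 tested genes 10 were lower and 2 higher. The lower ones included GUN4 (AT3G59400), a regulator of magnesium chelatase, at -0.81 (SE 0.07), and HEMA1 (AT1G58290), which makes the first committed precursor, at -0.63 (SE 0.09), whose call was lost without the vector line. The 2 higher ones were protochlorophyllide reductases, which turn protochlorophyllide into chlorophyllide in light. PORB (AT4G27440) had 332.9, 536.2 and 576.3 CPM at 75 mM, against 78.1, 132.2 and 131.3 CPM at 0 mM, a log2 difference of 1.94 ± 0.06 (SE, edgeR adjusted p = 0.000225), and PORA (AT5G54190) had 6.61, 16.1 and 17.4 CPM against 2.04, 6.80 and 6.90 CPM. Each line was higher with salt for both genes. For PORA the groups overlapped, since Col-0 with salt lay below the other lines without it.

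Starch breakdown genes were higher. Of 14 tested genes 13 were higher and 1 lower, with a median of 1.001, line medians of 1.03 in Col-0, 0.94 in the vector line and 0.90 in the line labelled T31-5, and 12 higher and 1 lower with the vector line and T31-5 summed. The summed level was 965.9, 1026 and 1026 CPM at 75 mM against 733.6, 665.2 and 651.3 CPM at 0 mM, without overlap. SEX1 (AT1G10760), the glucan water dikinase that phosphorylates the granule surface, had 175.4, 180.4 and 186.8 CPM at 75 mM against 78.3, 88.0 and 85.5 CPM at 0 mM. SEX4 (AT3G52180), the phosphatase that removes those phosphates, had 21.8, 30.6 and 32.7 CPM at 75 mM against 6.77, 10.2 and 9.84 CPM at 0 mM, a log2 difference of 1.52 ± 0.08 (SE, edgeR adjusted p = 0.000382). The debranching enzyme ISA3 (AT4G09020) had 15.8, 24.3 and 23.7 CPM against 6.49, 6.48 and 6.72 CPM. The disproportionating enzyme DPE1 (AT5G64860) had 17.8, 21.8 and 22.6 CPM against 6.96, 8.78 and 8.05 CPM. BAM5 (AT4G15210), a beta-amylase found outside the plastid, had the highest log2 difference, 2.37 ± 0.49 (SE), at low levels of 1.15, 2.16 and 0.394 CPM at 75 mM against 0.139, 0.268 and 0.184 CPM at 0 mM. The phosphorylases PHS1 (AT3G29320) and PHS2 (AT3G46970) were higher by 1.04 (SE 0.06) and 1.09 (SE 0.09). The exception was CT-BMY (AT4G17090), a chloroplast beta-amylase, with 99.9, 78.8 and 74.7 CPM at 75 mM against 289.8, 170.6 and 168.0 CPM at 0 mM. All salt-treated libraries lay above the untreated ones for the named risers and below them for CT-BMY.

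The 250 bases before the annotated start are shown for some starch breakdown genes. These were at least 2-fold higher and were picked for holding CACGTG (a G-box) or AAATATCT (the evening element). SEX4, BAM5 and RCP1 (AT5G17520) were also at least 2-fold higher but hold neither and are not shown. RBCS2B, a Calvin cycle gene that was lower, holds a G-box too and is given for contrast. Sequences are from RefSeq TAIR10.1, 5′ to 3′ on the gene's strand, ending at the base before the start, and capitals mark either motif, the evening element on either strand.
ISA3, chr4:5783659-5783908, plus strand: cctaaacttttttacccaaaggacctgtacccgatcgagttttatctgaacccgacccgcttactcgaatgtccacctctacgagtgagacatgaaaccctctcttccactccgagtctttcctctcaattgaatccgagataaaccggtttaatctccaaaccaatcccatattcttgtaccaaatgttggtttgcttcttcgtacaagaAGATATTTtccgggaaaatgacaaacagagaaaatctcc
DPE1, chr5:25928880-25929129, minus strand: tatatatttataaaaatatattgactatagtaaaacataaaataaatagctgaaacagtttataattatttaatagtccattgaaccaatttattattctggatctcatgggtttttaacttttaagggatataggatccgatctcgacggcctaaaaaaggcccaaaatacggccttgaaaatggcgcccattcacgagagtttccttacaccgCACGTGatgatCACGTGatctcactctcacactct
PHS1, chr3:11252557-11252806, plus strand: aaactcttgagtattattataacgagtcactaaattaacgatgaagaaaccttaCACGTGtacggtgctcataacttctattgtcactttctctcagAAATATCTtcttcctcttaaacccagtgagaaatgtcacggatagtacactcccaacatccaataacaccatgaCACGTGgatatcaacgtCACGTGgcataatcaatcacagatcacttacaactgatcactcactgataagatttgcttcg
PHS2, chr3:17306634-17306883, minus strand: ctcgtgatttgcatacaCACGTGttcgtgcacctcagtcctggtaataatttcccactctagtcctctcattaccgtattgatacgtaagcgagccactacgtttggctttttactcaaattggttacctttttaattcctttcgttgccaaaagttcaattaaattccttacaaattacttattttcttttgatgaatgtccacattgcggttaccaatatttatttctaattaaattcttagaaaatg
RBCS2B, chr5:15382072-15382321, minus strand: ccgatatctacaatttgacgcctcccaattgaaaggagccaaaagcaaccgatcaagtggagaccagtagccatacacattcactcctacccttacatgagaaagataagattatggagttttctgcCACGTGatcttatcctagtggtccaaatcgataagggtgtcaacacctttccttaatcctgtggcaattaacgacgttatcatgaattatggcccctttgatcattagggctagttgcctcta
PHS1 holds 4 matches, of which 3 are G-boxes, between 62 and 196 bases before its start. DPE1 holds 2 G-boxes at 24 and 35 bases, ISA3 an evening element at 39 bases, PHS2 a G-box at 233 bases in a window that runs into the neighbouring gene AT3G46980, and RBCS2B a G-box at 123 bases. Over the starch breakdown list, 21.4% of 14 windows held AAATATCT and 21.4% CACGTG, against 4.90% and 7.21% of the 20260 windows of all genes tested with a RefSeq start. In the Calvin cycle list 0% of 32 windows held AAATATCT and 15.6% held CACGTG. A match is a string of letters, and binding was not measured.

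Starch synthesis changed its isoforms. Of 11 genes 6 were lower and 4 higher. GBSS1 (AT1G32900), the granule-bound synthase that makes amylose, had 69.0, 78.1 and 92.5 CPM at 75 mM against 260.5, 160.4 and 159.0 CPM at 0 mM, with its call lost without the vector line. APL1 (AT5G19220), a large subunit of ADP-glucose pyrophosphorylase, fell by 0.91 (SE 0.06), and APL3 (AT4G39210), another large subunit, rose by 0.90 (SE 0.11). SS4 (AT4G18240), which initiates granules, had 105.6, 95.2 and 97.5 CPM at 75 mM against 49.7, 46.9 and 47.8 CPM at 0 mM. Of sugar transport and sucrose genes 11 of 24 were higher and 3 lower. SWEET12 (AT5G23660), a sucrose exporter of phloem loading, had 36.2, 44.1 and 39.5 CPM at 75 mM against 9.69, 9.26 and 10.4 CPM at 0 mM, a log2 difference of 1.88 ± 0.10 (SE, edgeR adjusted p = 0.000382). SUS1 (AT5G20830), a sucrose synthase, rose by 0.98 (SE 0.09), while ATSPS4F (AT4G10120), a sucrose-phosphate synthase, and the vacuolar sugar carrier SWEET16 (AT3G16690) fell by 1.17 (SE 0.10) and 1.07 (SE 0.10). Of 13 raffinose and inositol genes 1 was higher and 0 lower.

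Calls in lipid and amino acid breakdown were mostly higher. Of 12 genes of fatty acid beta-oxidation and the glyoxylate cycle 8 were higher and 0 lower, with a median of 0.53, and 6 higher with the vector line and T31-5 summed. ICL (AT3G21720), isocitrate lyase of the glyoxylate cycle, had 92.9, 130.9 and 82.6 CPM at 75 mM, against 10.3, 15.4 and 15.4 CPM at 0 mM, a log2 difference of 2.74 ± 0.18 (SE, edgeR adjusted p = 0.00108). Its partner malate synthase MLS (AT5G03860) had 3.92, 3.67 and 2.85 CPM against 1.35, 1.34 and 1.75 CPM. The thiolase PKT3 (AT2G33150) had 465.1, 414.2 and 368.5 CPM against 191.0, 208.6 and 204.8 CPM. Of 29 genes of energy starvation and amino acid breakdown 13 were higher and 2 lower. DIN2 (AT3G60140), a beta-glucosidase induced in the dark, had 281.1, 171.4 and 74.2 CPM at 75 mM against 23.2, 14.4 and 12.7 CPM at 0 mM, and its call was lost without Col-0. The first enzyme of lysine breakdown (AT4G33150) and the branched-chain aminotransferase BCAT-2 (AT1G10070) rose by 1.20 (SE 0.18) and 1.13 (SE 0.22), calls that were lost without the vector line. Line medians of this list were 0.61 in Col-0, 0.36 in the vector line and 0.11 in the line labelled T31-5.

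Of 18 genes of glycolysis and fermentation 8 were higher and 1 lower. ADH1 (AT1G77120), alcohol dehydrogenase, had 38.9, 127.8 and 144.7 CPM at 75 mM against 20.8, 50.4 and 50.7 CPM at 0 mM, so that each line was higher with salt although Col-0 with salt lay below the other lines without it. PDC2 (AT5G54960), pyruvate decarboxylase, rose by 0.89 (SE 0.07), and PPC2 (AT2G42600), a phosphoenolpyruvate carboxylase, fell by 0.50 (SE 0.07). In alternative respiration, where 3 of 11 were higher and 2 lower, NDA1 (AT1G07180), an alternative NAD(P)H dehydrogenase, fell by 1.38 (SE 0.08) and its paralog NDA2 (AT2G29990) rose by 0.52 (SE 0.12), a call that was lost without the vector line or without T31-5.

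**Figure D2:**
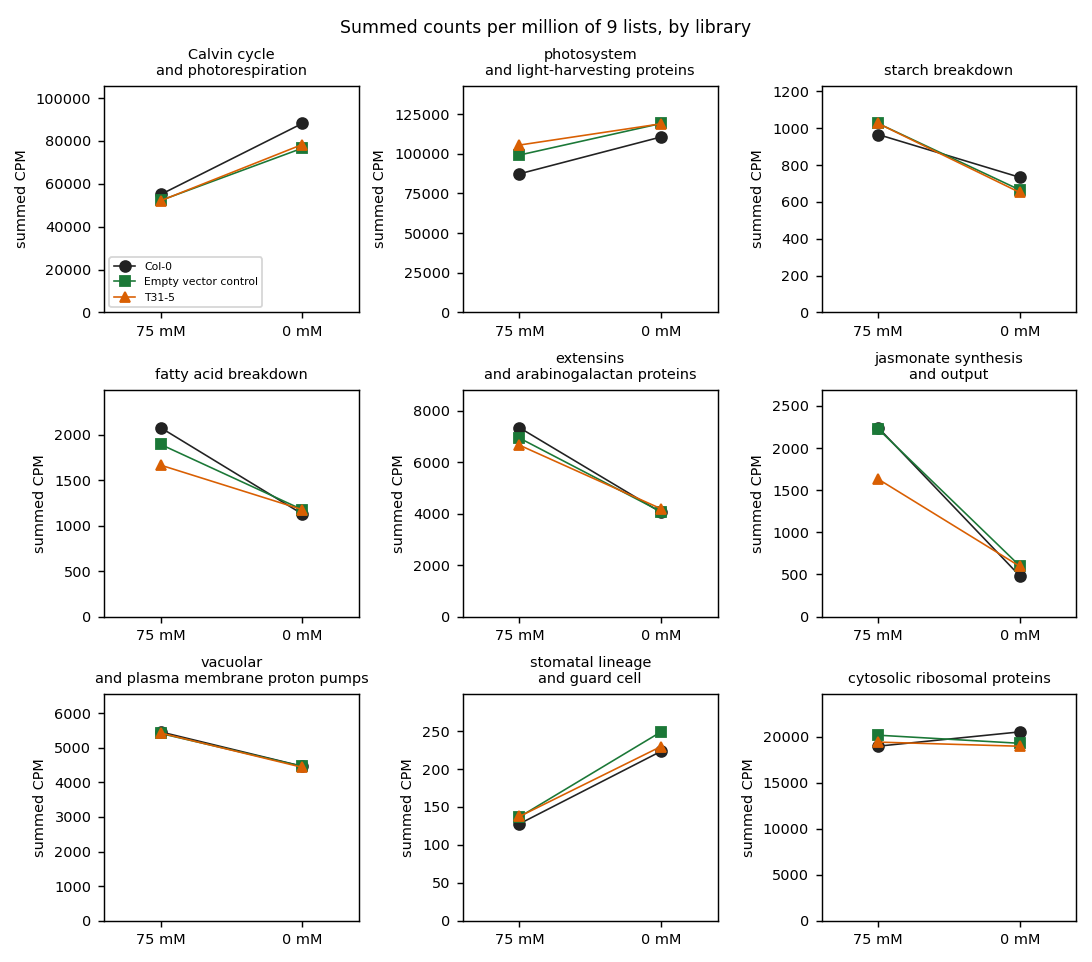
Each panel plots the summed CPM of all members of a list in the 75 mM (left) and 0 mM (right) library of Col-0, Empty vector control and T31-5, joined by line, on axes that start at 0. Calvin cycle, photosystem and guard cell lists are lower at 75 mM in every line, 5 lists are higher in every line, and cytosolic ribosomal proteins overlap, at 18970 to 20160 CPM against 18960 to 20520 CPM.

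By the largest mean difference in CPM, which is not corrected for gene length, the genes that were at least 2-fold higher were led by wall, jasmonate and proline genes. EXT4 (AT1G76930), an extensin of the cell wall, had 3137, 2052 and 1174 CPM at 75 mM, against 250, 255.5 and 259.0 CPM at 0 mM, a log2 difference of 2.80 ± 0.34 (SE, edgeR adjusted p = 0.0092). NIT2 (AT3G44300), a nitrilase, had 1263, 984.9 and 581.5 CPM against 135.7, 142.7 and 140.6 CPM. P5CS1 (AT2G39800), which catalyses the first step of proline synthesis from glutamate, had 623.3, 699.1 and 702.2 CPM against 169.9, 137.0 and 136.7 CPM. Without Col-0, and likewise without the vector line, EXT4 and NIT2 lost their calls. All 3 genes were higher in every library with salt than in any without, and the order of the lines differed, Col-0 being highest for EXT4 and NIT2 and lowest for P5CS1. The others were LOX2, GRP-3, EXT3, TGG2, PORB, RD19, ALDH7B4, CCL and the peroxidase AT4G37520, with log2 differences between 1.06 and 3.56. On the other side FBA2, RBCS2B, FED A, FBA1 and HPR of photosynthesis and photorespiration stood beside the glycine decarboxylase GLDP2 (AT2G26080) and the carbonic anhydrase CA1 (AT3G01500), which had 702.7, 1185 and 938.7 CPM at 75 mM against 2686, 2146 and 2132 CPM at 0 mM and whose call was lost without T31-5. SCO1 (AT1G62750), the elongation factor G of plastid translation, and the chloroplast RNA binding protein CRB (AT1G09340) fell by 1.03 (SE 0.05) and 1.10 (SE 0.06). NIA1 (AT1G77760), nitrate reductase, had 187.0, 137.3 and 134.5 CPM at 75 mM against 495.3, 557.7 and 558.7 CPM at 0 mM, and AT2G26500 (a cytochrome b6f subunit) and AT3G54500 (described as agglutinin-like) completed the 12.

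**Figure D3:**
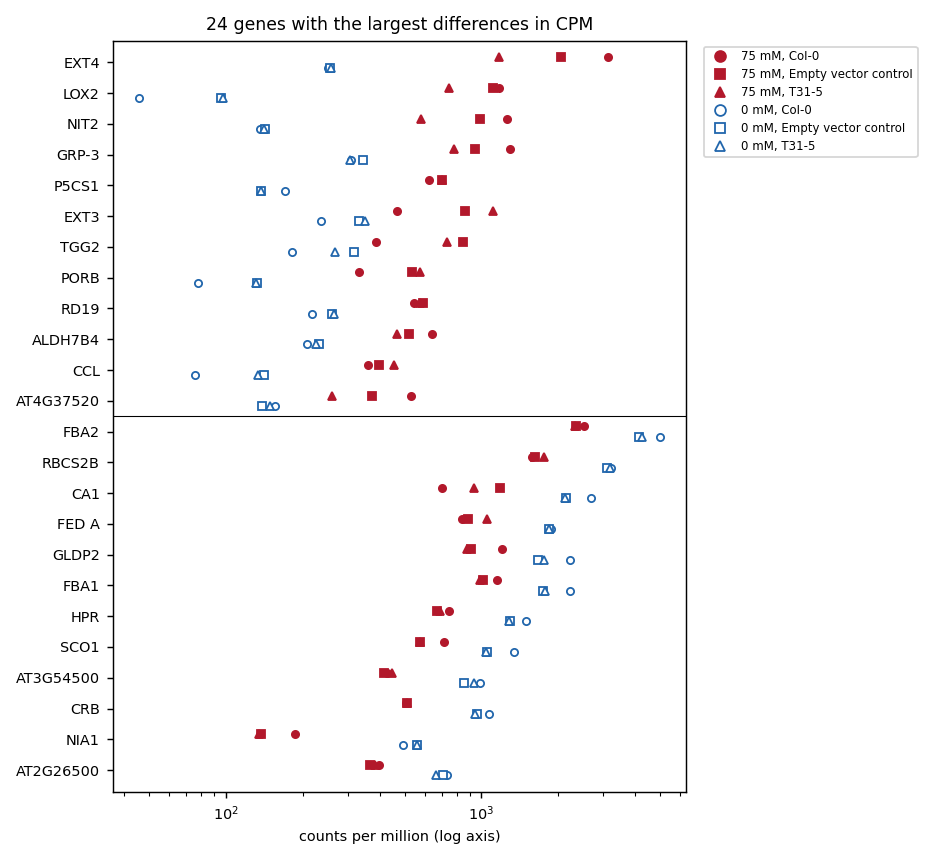
CPM of the 24 genes with the largest mean differences among those called and at least 2-fold apart, on a log axis, 12 higher (top) and 12 lower (bottom) with salt; filled red symbols are the 75 mM libraries, open blue ones the 0 mM libraries, and shapes mark the line. The 75 mM and 0 mM symbols do not overlap for any of the 24 genes.

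Among genes of translation and chromatin, calls depended on the list. Of 44 translation initiation factors 4 were lower (9.09%) and of 25 ribosome biogenesis genes 4 (16.0%), against 15.5% of all genes tested, with 1 higher in each. Of 168 genes of cytosolic ribosomal proteins, the structural proteins of the ribosome, 56 were lower, 0 higher and 112 did not pass, with a median of -0.15. With gene reads alone as library sizes 12 were lower and 3 higher with a median of -0.00, so the number of lower calls rests on the scaling. The list median lay below that of all genes in both settings, which was 0.01 with TMM factors and 0.16 with gene reads alone. With the vector line and T31-5 summed 11 were lower. The list summed to 18970, 20160 and 19410 CPM at 75 mM against 20520, 19280 and 18960 CPM at 0 mM, which overlap. Of 41 histone genes 16 were lower and 0 higher with a median of -0.26, and 9 lower and 1 higher with gene reads alone. HTA4 (AT4G13570), a histone H2A, had 2.46, 2.43 and 5.22 CPM at 75 mM against 6.96, 8.89 and 12.4 CPM at 0 mM. In plastid translation FUG1 (AT1G17220), the plastid initiation factor, had 540.8, 446.0 and 443.4 CPM at 75 mM against 748.2, 655.0 and 655.9 CPM at 0 mM, and of plastid and mitochondrial ribosomal proteins 6 of 17 were lower and 0 higher.

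Protein turnover and folding in the secretory pathway changed at a few genes. Of 37 proteasome genes 8 were higher (21.6%, against 14.6% of all genes) and 1 lower, with 23 higher and 0 lower under gene reads alone and 2 higher with the vector line and T31-5 summed. PA200 (AT3G13330), the proteasome activator, had 131.8, 133.0 and 138.1 CPM at 75 mM against 81.6, 93.3 and 94.7 CPM at 0 mM. Of 19 genes of the unfolded protein response of the endoplasmic reticulum 5 were higher and 0 lower, among them the disulfide isomerase PDIL1-1 (AT1G21750), which rose by 0.78 (SE 0.07). Heat shock proteins went the other way, with 22 of 67 lower and 3 higher, HSP70 (AT3G12580) having 53.97, 39.97 and 40.58 CPM at 75 mM against 195.6, 119.3 and 120.6 CPM at 0 mM, a log2 difference of -1.81 ± 0.08 (SE, edgeR adjusted p = 0.000329). HSP101 (AT1G74310) had 14.0, 12.2 and 12.9 CPM against 60.3, 27.8 and 30.9 CPM. Of the 3 higher ones, BIP2 (AT5G42020) is the chaperone of the endoplasmic reticulum, at 0.25 (SE 0.06), a call lost without the vector line or without T31-5. The heat shock median of -0.15 became -0.00 under gene reads alone, with 16 lower and 12 higher.

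Cell cycle genes were higher in 7 of 28 cases and lower in 0, with line medians of 0.02 in Col-0, 0.55 in the vector line and 0.46 in the line labelled T31-5. CDC6 (AT2G29680), which licenses replication origins, had 6.84, 7.02 and 6.75 CPM at 75 mM against 3.01, 3.11 and 3.77 CPM at 0 mM, a call lost without the vector line. TSO2 (AT3G27060), a subunit of ribonucleotide reductase, had 55.2, 54.6 and 42.0 CPM at 75 mM against 29.59, 25.91 and 23.96 CPM at 0 mM. With the vector line and T31-5 summed, 2 genes of the list were higher.

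Cell wall lists differed in their shares of calls and between lines. Of 27 xyloglucan endotransglucosylases, which cut and rejoin wall xyloglucan, 9 were higher and 2 lower, XTR6 (AT4G25810) having 318.4, 178.8 and 108.8 CPM at 75 mM against 30.1, 27.7 and 30.4 CPM at 0 mM, a call lost without Col-0 or without the vector line. With the vector line and T31-5 summed 3 were higher and 1 lower. Of 84 extensins and arabinogalactan proteins 18 were higher (21.4%) and 11 lower (13.1%), against 14.6% and 15.5% of all genes tested. The list summed to 7344, 6940 and 6664 CPM at 75 mM against 4052, 4078 and 4192 CPM at 0 mM. Of 63 class III peroxidases, which cross-link walls, 16 were higher and 3 lower. PRXCB (AT3G49120) had 235.2, 251.1 and 226.2 CPM at 75 mM against 51.8, 89.5 and 87.4 CPM at 0 mM. Of 24 expansins, which loosen walls, 5 were higher (20.8%) and 1 lower (4.17%), EXPA10 (AT1G26770) having 43.4, 49.2 and 62.7 CPM against 16.6, 17.2 and 17.4 CPM. Of 89 pectin-related genes 21 were higher (23.6%) and 5 lower (5.62%). Col-0 medians were -0.07 for expansins, -0.04 for extensins and arabinogalactan proteins and -0.18 for cellulose synthases. The middle member of these lists was thus not higher there on the TMM scale, although the Col-0 sums, over gene reads alone, were. The sums were 442.2 CPM with salt against 290.9 CPM for expansins, 7344 against 4052 CPM for extensins and arabinogalactan proteins, and 2265 against 1974 CPM for cellulose synthases. Medians and sums are on unlike scales, the Col-0 TMM factors being 0.999 at 75 mM and 0.913 at 0 mM. Cellulose synthases and their relatives gave 4 higher and 6 lower of 28, with CESA1 (AT4G32410), a subunit of primary wall synthesis, at 0.30 (SE 0.07), a call lost without the vector line or without T31-5.

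Surface lipids split by gene. Of 24 wax and cutin genes 13 were lower and 2 higher, with a median of -0.33. One of the 2 was CER1 (AT1G02205), which makes wax alkanes, with 37.6, 74.8 and 88.7 CPM at 75 mM against 7.56, 10.4 and 12.5 CPM at 0 mM, a log2 difference of 2.53 ± 0.11 (SE, edgeR adjusted p = 0.000329). The other was the elongase KCS2 (AT1G04220), which acts in suberin and wax, at 0.76 (SE 0.11). CER2 (AT4G24510), which extends wax precursors, and MYB94 (AT3G47600), an activator of wax genes, fell by 0.93 (SE 0.12) and 0.86 (SE 0.11). Of 12 suberin genes 4 were higher and 0 lower, with FAR1 (AT5G22500), which makes suberin alcohols, at 23.99, 41.81 and 41.02 CPM at 75 mM against 10.3, 15.8 and 13.9 CPM at 0 mM. Line medians of the suberin list were -0.00 in Col-0, 0.97 in the vector line and 0.94 in the line labelled T31-5, and with the vector line and T31-5 summed 1 gene was higher.

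Ion pumping and nutrient genes changed with salt. Of 27 genes of vacuolar and plasma membrane proton pumps 12 were higher and 2 lower, and their sum was 5457, 5412 and 5425 CPM at 75 mM against 4464, 4461 and 4434 CPM at 0 mM, without overlap. VAB3 (AT1G20260), subunit B of the vacuolar ATPase, had 221.8, 218.1 and 205.7 CPM at 75 mM against 156.4, 143.7 and 141.1 CPM at 0 mM, a call lost without the vector line. The changes were small, with a median of 0.17, and 3 genes were higher with the vector line and T31-5 summed. The plasma membrane pump HA5 (AT2G24520) fell by 0.68 (SE 0.09), and the pyrophosphatase AVP1 (AT1G15690) did not pass, with 819.4, 788.4 and 753.2 CPM at 75 mM and 820.7, 702.2 and 715.1 CPM at 0 mM.

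Of 26 nitrogen genes 10 were higher and 11 lower. Lower ones included NIA1 as given above, the nitrite reductase NIR1 (AT2G15620) with 92.1, 118.3 and 171.2 CPM at 75 mM against 228.2, 205.5 and 202.0 CPM at 0 mM, and the plastid glutamine synthetase GS2 (AT5G35630) with 1194, 1245 and 1355 CPM against 1898, 1961 and 1904 CPM. Cytosolic glutamine synthetase GLN1.3 (AT3G17820) was higher, with 51.9, 64.7 and 54.0 CPM against 29.3, 29.4 and 31.1 CPM. Among transporters NRT1.8 (AT4G21680), which takes nitrate back out of the xylem, had 94.4, 64.6 and 37.3 CPM at 75 mM against 10.3, 8.56 and 9.34 CPM at 0 mM, a log2 difference of 2.57 ± 0.27 (SE, edgeR adjusted p = 0.00542) that was not called without the vector line. NRT1.5 (AT1G32450), which loads nitrate into the xylem, had 29.3, 98.2 and 85.1 CPM at 75 mM against 80.8, 137.0 and 131.9 CPM at 0 mM, with overlap between lines and no call without the vector line or without T31-5. The high-affinity transporter NRT2:1 (AT1G08090), also a root marker, had 1.38, 6.06 and 3.07 CPM against 0.325, 0.161 and 0.414 CPM. Of 18 sulfur genes 7 were higher and 1 lower, SULTR4;2 (AT3G12520), which exports sulfate from the vacuole, having 23.3, 24.9 and 21.7 CPM at 75 mM against 7.84, 5.35 and 5.38 CPM at 0 mM. Sulfite reductase SIR (AT5G04590) was the lower one, at -0.58 (SE 0.08).

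Genes of auxin and brassinosteroids were called lower more often than higher. Of 21 auxin genes 11 were lower and 1 higher, against 15.5% and 14.6% of all genes tested, with a median of -0.60, and 9 lower and 0 higher with the vector line and T31-5 summed. IAA7 (AT3G23050), a repressor that auxin induces, had 62.2, 74.3 and 99.9 CPM at 75 mM against 117.6, 165.3 and 163.1 CPM at 0 mM. IAA29 (AT4G32280) had 0.615, 1.74 and 2.28 CPM at 75 mM against 1.90, 8.03 and 9.71 CPM at 0 mM, overlapping between lines although each line was lower with salt. The auxin carrier PIN3 (AT1G70940) had 112.1, 136.4 and 173.1 CPM against 200, 231.9 and 231.4 CPM. The gene that was higher was DFL1 (AT5G54510), which conjugates auxin to amino acids, and its call was lost without the vector line or without T31-5. Of 54 SAUR genes 13 were lower and 3 higher. Among 18 brassinosteroid genes 7 were lower and 1 higher, with BEE3 (AT1G73830), a growth regulator, at 9.994, 11.01 and 13.93 CPM at 75 mM against 25.6, 25.7 and 26.8 CPM at 0 mM. Gibberellin genes gave 4 higher and 2 lower of 20, with a list sum of 2545, 1795 and 1557 CPM at 75 mM against 1128, 1121 and 1108 CPM at 0 mM, without overlap. Cytokinin genes gave 1 higher and 1 lower of 17. Ethylene genes gave 3 higher and 4 lower (17.4%) of 23, near the shares of all genes.

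Jasmonate genes were higher in 12 of 24 cases and lower in 2, with a list sum of 2242, 2226 and 1631 CPM at 75 mM against 483.0, 601.4 and 596.2 CPM at 0 mM. LOX2 (AT3G45140), the plastid lipoxygenase that starts jasmonate synthesis, had 1174, 1109 and 749.1 CPM at 75 mM against 45.6, 95.3 and 97.2 CPM at 0 mM. CORI3 (AT4G23600), a jasmonate-induced lyase, had 185.0, 178.4 and 127.8 CPM against 12.8, 13.4 and 13.5 CPM. The groups did not overlap for either gene, and the LOX2 call was lost without the vector line. PDF1.2 (AT5G44420), a defensin that needs jasmonate and ethylene, had 0.154, 0.642 and 0.307 CPM at 75 mM against 0.0927, 5.62 and 5.80 CPM at 0 mM. It called as lower, but Col-0 had next to none at either level, so this call rests on the vector line and T31-5. With those lines summed 7 genes of the list were higher and 1 lower.

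Calls among light signalling and stomatal genes were mostly lower. Of 25 light signalling genes 15 were lower and 2 higher, the higher ones being the photoreceptors PHYA (AT1G09570), with 348.8, 328.1 and 336.9 CPM at 75 mM against 206.2, 232.0 and 230.7 CPM at 0 mM, and CRY2 (AT1G04400), at 0.39 (SE 0.07). HYH (AT3G17609), a partner of the light regulator HY5, had 13.1, 9.13 and 9.47 CPM at 75 mM against 42.0, 26.9 and 26.6 CPM at 0 mM, a log2 difference of -1.72 ± 0.08 (SE, edgeR adjusted p = 0.000329). Of 14 stomatal lineage and guard cell genes 8 were lower and 0 higher, with a median of -0.73 and a list sum of 127.8, 136.9 and 137.5 CPM at 75 mM against 223.4, 249.0 and 229.7 CPM at 0 mM. MYB60 (AT1G08810), a guard cell factor that promotes opening, had 4.08, 4.59 and 4.60 CPM against 14.3, 13.5 and 12.1 CPM, and the guard cell potassium channel KAT1 (AT5G46240) had 5.38, 7.76 and 8.41 CPM against 12.2, 17.4 and 15.9 CPM. SPCH (AT5G53210), which starts the lineage, had 1.46, 1.74 and 1.32 CPM against 3.71, 2.78 and 2.25 CPM. Salt-treated libraries lay below all untreated ones for each of these 3. Of the 4 guard cell markers, MYB60 and KAT1 are those just given, and AT1G22690 had 35.8, 31.9 and 33.9 CPM at 75 mM against 89.7, 112.9 and 104.7 CPM at 0 mM. The remaining marker, FMA (AT3G24140), fell less, by 0.40 (SE 0.10). It had 12.69, 15.05 and 17 CPM at 75 mM against 17.2, 19.11 and 17.16 CPM at 0 mM.

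The large families of specialised metabolism had calls in both directions, where 14.6% of all genes tested were higher and 15.5% lower. Cytochromes P450 gave 35 higher (19.7%) and 33 lower (18.5%) of 178, and family 1 glycosyltransferases 24 higher (22.0%) and 19 lower (17.4%) of 109. Glutathione transferases gave 11 higher (21.2%) and 5 lower (9.62%) of 52. Of 17 flavonoid genes 7 were higher (41.2%) and 2 lower (11.8%). DFR (AT5G42800), the first enzyme of the anthocyanin branch, had 10.2, 28.1 and 24.1 CPM at 75 mM against 1.67, 2.20 and 2.48 CPM at 0 mM. In lignin synthesis 7 of 20 were higher and 4 lower. There CAD5 (AT4G34230) rose by 0.62 (SE 0.08) and its fellow cinnamyl alcohol dehydrogenase ATCAD4 (AT3G19450) fell by 0.83 (SE 0.06). Immune receptors of the NBS-LRR kind gave 7 higher and 16 lower of 113, near or below the background in each direction.

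Of 982 tested genes described as transcription factors or zinc finger proteins, 131 were higher and 155 lower, shares close to the background. Beside MYB60, the deepest falls included HSFA2 (AT2G26150), a heat stress factor, with 4.77, 2.66 and 2.50 CPM at 75 mM against 19.3, 6.96 and 5.84 CPM at 0 mM, and the shade and auxin related homeobox genes HAT1 (AT4G17460) and HAT2 (AT5G47370), at -1.35 (SE 0.08) and -1.22 (SE 0.09). UNE10 (AT4G00050), a bHLH protein, and WRKY22 (AT4G01250), an immune regulator, fell by 1.30 (SE 0.08) and 1.29 (SE 0.17). Among those higher were the bHLH gene AT5G50915, with 72.7, 50.4 and 58.2 CPM at 75 mM against 32.3, 18.6 and 18.8 CPM at 0 mM, FBH3 (AT1G51140), a bHLH activator of CONSTANS, at 1.23 (SE 0.09), WRKY48 (AT5G49520) at 1.14 (SE 0.25), and the NAC genes ANAC087 (AT5G18270) and NAC047 (AT3G04070) at 1.04 (SE 0.15) and 1.03 (SE 0.24). The calls of WRKY22, WRKY48 and NAC047 were lost without the vector line, and that of NAC047 also without Col-0.

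Tested genes were also sorted by the location that RefSeq notes give them, which 11990 of them have. Of 2245 genes with the term chloroplast 32.0% were lower and 12.7% higher, against 15.5% and 14.6% of all genes tested, and 1242 did not pass. Of 195 genes of the chloroplast thylakoid membrane 64.1% were lower and 12 genes higher, and of 263 of the stroma 123 were lower and 46 higher. Under gene reads alone the term chloroplast gave 506 lower and 534 higher, so lower calls did not outnumber higher ones there. The stroma then gave 88 lower and 65 higher, and the thylakoid membrane 101 and 21. Among all 20393 genes tested that setting gave 1995 lower and 5501 higher. The share lower was thus still greater for the term chloroplast, at 506 of 2245, than for all genes. The median of the term was then 0.03, against 0.16 for all genes. Of 111 peroxisome genes 48 were higher (43.2%), 12 lower and 51 did not pass, with 27 and 7 when the vector line and T31-5 were summed and 64 and 8 under gene reads alone. Of 25 genes under the term vacuolar membrane 13 were higher and 1 lower, which became 3 and 1 with those lines summed, while of 21 under plant-type vacuole membrane 4 were higher and 3 lower. Of 20 genes of respiratory complex I 7 were higher and 1 lower, which became 1 and 0. Among gene families grouped by the stem of their symbol, the share lower less the share higher was highest in HCF, whose members assemble the photosynthetic apparatus, with 8 lower and 0 higher of 12, in the auxin repressors IAA with 9 and 0 of 17, in HSP with 11 and 0 of 21, in RPL with 11 and 0 of 21, in the B-box factors BBX with 9 and 2 of 14 and in PTAC with 7 and 2 of 13. At the other end were the disulfide isomerases PDIL with 7 higher and 0 lower of 12, beta-glucosidases BGLU with 15 and 2 of 31, AAE with 5 and 1 of 10, AGP with 12 and 2 of 27, aldehyde dehydrogenases ALDH with 8 and 3 of 14, and SDH with 4 and 0 of 12, whose share was equalled by SCPL with 13 and 2 of 33 and BGAL with 5 and 1 of 12. With the vector line and T31-5 summed, the higher counts were 2 of 12 for PDIL, 13 of 31 for BGLU, 1 of 10 for AAE, 8 of 27 for AGP, 7 of 14 for ALDH and 2 of 12 for SDH. The lower counts were then 7 of 12 for HCF, 6 of 17 for IAA, 7 of 21 for HSP, 7 of 21 for RPL, 3 of 14 for BBX and 5 of 13 for PTAC.

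**Figure D4:**
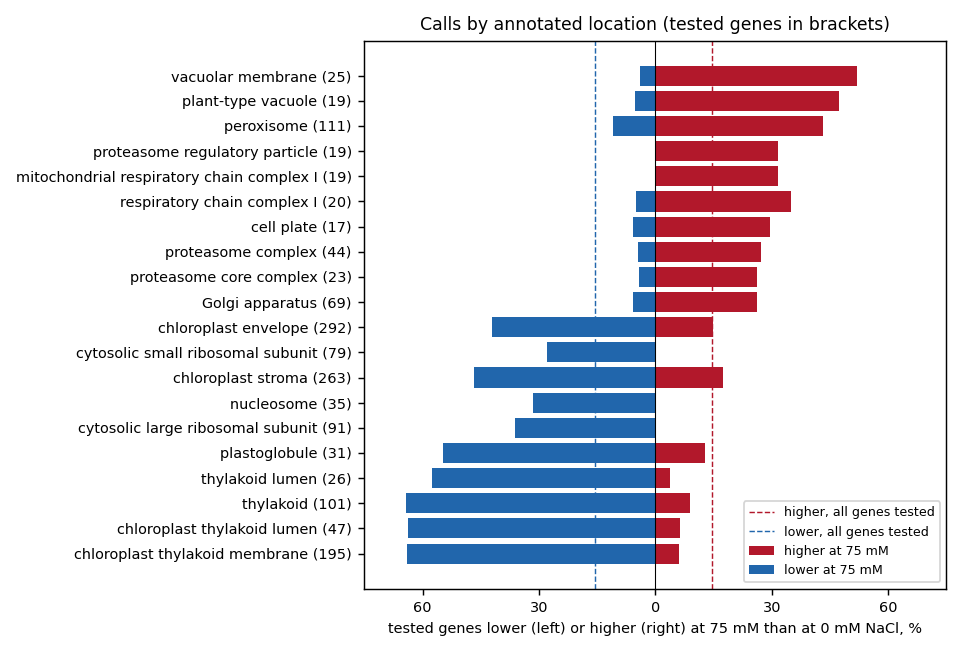
Bars give the percentage of tested genes called lower (left) or higher (right) at 75 mM than at 0 mM NaCl for the 10 location terms with the most negative and the 10 with the most positive balance, the number tested in brackets, with dashed lines at 15.5% and 14.6% for all genes tested. Thylakoid terms lie at the bottom and vacuole and peroxisome terms at the top; terms overlap in their genes.

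The lines did not respond alike in every list, as values of 1 library pair per line whose differences were not tested. Early wound, calcium and pattern-triggered genes differed, the Col-0 median being 1.12, with -0.08 in the vector line and -0.22 in the line labelled T31-5. Their sum was 1341, 869.9 and 708.7 CPM at 75 mM against 537.5, 807.7 and 797.7 CPM at 0 mM, so Col-0 was the highest line with salt and the lowest without. Only CML37 (AT5G42380), a calmodulin-like protein, passed among its 17 tested genes. Class III peroxidases ran the other way, with medians of 0.04 in Col-0, 0.31 in the vector line and 0.64 in the line labelled T31-5. The Calvin cycle, photosystem, starch breakdown and guard cell lists had medians on the same side of 0 in all 3 lines.

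**Figure D5:**
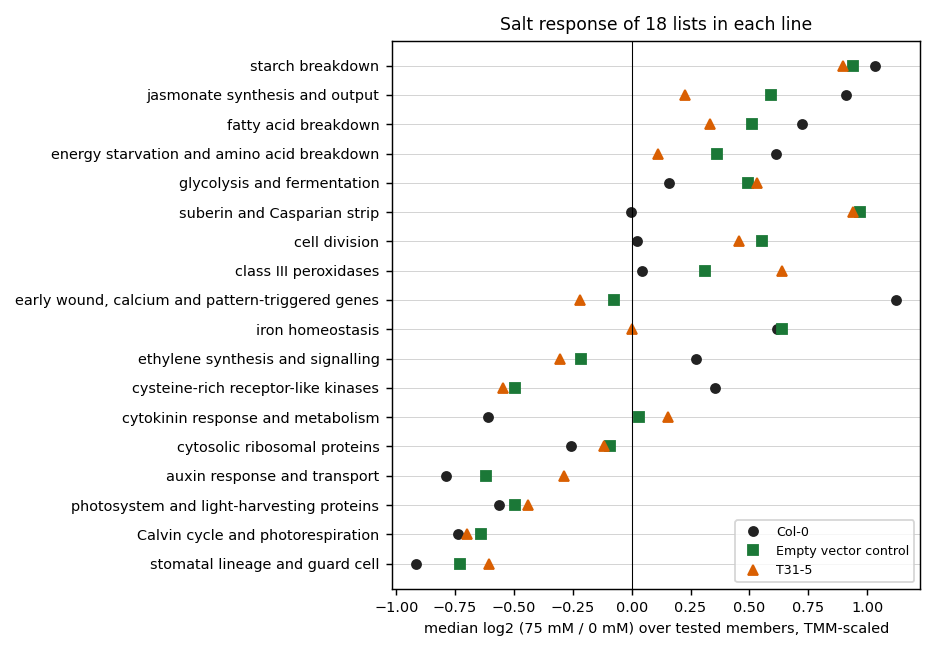
Points give the median log2 ratio of 75 mM over 0 mM across the tested members of 18 lists in each line (TMM-scaled). Starch breakdown lies between 0.90 and 1.03 and the Calvin cycle between -0.74 and -0.64 in the 3 lines, while early wound genes spread from -0.22 to 1.12.

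The share of genes whose 250 bases upstream hold a motif, on either strand, was set against that of all genes tested. AAATATCT, the evening element bound by clock factors, was found in 9.09% of 704 genes that were at least 2-fold higher, in 4.16% of 457 that were at least 2-fold lower and in 4.90% of all 20260. ACGTG, the core of elements bound by bZIP factors, which also lies within CACGTG, was found in 31.2%, 28.7% and 23.7%. TGGGCC, common upstream of ribosomal and other growth genes, was found in 7.24%, 9.63% and 16.2%, and TTGAC, the core of the WRKY element, in 48.3%, 39.4% and 45.2%. For CACGTG the shares were 9.23%, 10.7% and 7.21%, for CCGAC, the core of the drought and cold element, 14.3%, 10.5% and 12.8%, and for GATAAG 15.1%, 14.0% and 12.4%. For AAACCCTA they were 1.85%, 1.75% and 3.55%, for GNATATNC, of phosphate starvation, 6.25%, 5.47% and 5.41%, for GAANNTTC, of heat shock factors, 8.24%, 9.85% and 9.31%, and for TTTCCCGC, of E2F factors, 0.284%, 0.656% and 0.597%. Over all called genes TGGGCC was in 11.7% of those higher and 18.1% of those lower. These are descriptions of letters in a window.

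No gene was switched on at a high level. The most abundant genes with 0 reads in all 3 libraries without salt stayed low: FUT8 (AT1G14100), a fucosyltransferase, had 0.384, 0.551 and 0.438 CPM at 75 mM, where 0 reads at 0 mM allow up to 0.161 CPM (3 reads). The late embryogenesis gene AT2G42560 had 0.0769, 1.24 and 0 CPM at 75 mM, its level resting on the vector line. In reverse, AT1G63570, described as related to receptor kinases, had 0 reads at 75 mM and 0.464, 0.321 and 0.322 CPM at 0 mM.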

How the data were processed

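RNA of whole plants was sequenced in 8 samples, of which 6 were used here. Per the submitters' processing notes, TopHat2 2.0.5 and HTSeq were used with TAIR10. The values are the raw read counts per gene that the authors deposited. No source used here states strandedness or counting mode, so near-identical, overlapping and antisense genes are uncertain. HTSeq summary rows (2.49% to 2.60% of reads) and added transgene rows were left out of library sizes. Depth was 13007480 to 22820814 gene reads, so 3 reads equal 0.131 to 0.231 CPM.

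Genes with at least 0.462 CPM in 2 libraries were fitted in edgeR 4.0.16 (R 4.3.3, TMM factors, quasi-likelihood test, 2 residual degrees of freedom) as salt plus line. Samples are paired because both come from the same line. P-values were Benjamini-Hochberg adjusted over 20393 genes with a threshold of 0.05, and the script was tested on simulated data. DESeq2 1.42.0 served as an alternative, as did other scalings, filters, lines left out and lines summed.

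Names, descriptions, locations and the 250 bases before gene starts came from RefSeq TAIR10.1 (31912 identifiers matched). The members, the 59 lists and the tests were chosen with earlier results of these data known. Ribosomal, defensin and histone lists were corrected from their descriptions after a first search drew in other genes, and the survey of locations was added after seeing the data. Named were the 12 genes in each direction with the largest mean CPM difference among those called and at least 2-fold apart, up to 3 in each direction per list with a mean of at least 5 CPM by log2 difference, up to 8 factors in each direction, the 6 families at either end by share higher less share lower, and genes at 0 reads in 1 group. Further list members were named for their role after their values were seen.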

Additional observations from a re-analysis of the deposited data

Results flagged for a closer look

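The lines moved in opposite directions in a pair of lists. The median log2 difference of ethylene genes was 0.27 in Col-0, -0.22 in the vector line and -0.30 in the line labelled T31-5. The cysteine-rich receptor-like kinases had medians of 0.35 in Col-0, -0.50 in the vector line and -0.55 in the line labelled T31-5. With 1 library per line and salt level the difference between lines was not tested.

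The T31 row, outside the gene table, held 68 reads at 75 mM and 83 at 0 mM in the vector line, and 0 reads at either level in Col-0.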

How the results depend on the processing

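With gene reads alone as library sizes 5501 genes were higher and 1995 lower, and with the vector line and T31-5 summed 1279 and 1619. With T43-11 added 0 genes were called in either direction by edgeR, with 5996 at an unadjusted p under 0.05. DESeq2 called 1828 higher and 2238 lower. Leaving out each line in turn gave 772 to 3974 higher and 1127 to 4117 lower. The pairing is by line, and without the replicate block 2512 were higher and 2476 lower. The cause of these changes was not tested. Under gene reads alone the medians of ribosome biogenesis and translation initiation factors changed sign, to 0.0114 and 0.0745. With genes kept at a mean of 5 CPM that of cytochromes P450 became -0.0449. Over all called genes the share with TGGGCC among lower genes was 1.94 points above that of all genes, where among genes at least 2-fold lower it was below. Of 278 named genes that were called, 0 changed sign in any of these settings. Calls lost numbered 63 with the lines summed, 278 with T43-11 added, 36 without the block, 25 in DESeq2, 20 with gene reads alone, and 13, 114 and 64 without Col-0, the vector line and T31-5. Fits with lines summed or left out have fewer residual degrees of freedom than the main fit. The fit without Col-0 holds only the vector line and T31-5, which were close at 0 mM, so these losses are not comparable between lines. With 3 lines and 2 residual degrees of freedom, small changes may be missed.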

Other observations

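Sorting by the biological process in RefSeq notes gave further groups. Of 17 genes annotated as responding to far red light 14 were lower with salt and 1 higher, of 17 for red light 13 and 0, and of 18 for blue light 13 and 2, where 15.5% of all genes tested were lower and 14.6% higher. The related terms differed: of 15 genes for red or far red light 1 was lower and 1 higher, and of 93 for light stimulus 25 were lower and 15 higher. Of 228 genes annotated to salt stress 86 were higher and 23 lower. Of 17 genes of nucleotide-sugar metabolism 8 were higher and 1 lower, and of 98 under the term ribosome biogenesis 38 were lower (38.8%) and 1 higher. The list of 25 ribosome biogenesis genes in the report had 4 lower (16.0%), near the share of all genes, and its median changed sign under gene reads alone. Terms overlap in their genes, and the survey was made after the first results were seen.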
